A study of Homo sapiens with 4 samples.

Results

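The genes described here are those of antigen presentation by the major histocompatibility complex (MHC): 37 genes chosen by name. A probe carried the symbol of 36 of them on the array, 59 probes in all, and 49 of these probes, for 32 genes, were detected on at least 1 of the 4 arrays. They were taken apart into a class I pathway of 17 genes, a class II pathway of 17 genes, and the 3 subunits of the RFX complex, which binds promoters of both classes. HLA-DQA1 had no probe, and HLA-DRB1, HLA-DRB5, HLA-DOB and NLRC5 were detected on no array, which leaves 16 class I genes, 13 class II genes and 3 RFX genes of 10077 genes detected in the series.

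Expression was measured on 1-colour Illumina beadchips in MelJuSo, a human melanoma line of skin origin, with 1 array for each of 4 groups. The untreated group was given no drug, and the labels state no exposure or culture time for it. The aclarubicin group received 10 µM aclarubicin, the doxorubicin group 9 µM doxorubicin, and the combined group 10 µM etoposide with 10 µM aclarubicin. In these 3 groups the drug was left on for 2 h and washed off, and RNA was taken 1 day later. With 1 array a group there is no replicate spread: no p-value is given, every difference is between arrays, and fewer cells with a transcript cannot be told apart from less of it per cell. Since all cells are of 1 line, the values describe that line only.

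Class I molecules are a polymorphic heavy chain joined to beta-2-microglobulin. They carry peptides that the proteasome cuts in the cytosol, that the TAP transporter moves into the endoplasmic reticulum and that tapasin helps to load. Class II molecules pair an alpha and a beta chain, travel with the invariant chain CD74 to endosomes, and exchange its remnant there for peptides of internalised proteins with the help of HLA-DM. Class II genes are mostly restricted to professional antigen-presenting cells, but many melanoma lines transcribe them too, and their transcription depends on the coactivator CIITA, which is held at the promoter by RFX, CREB and NF-Y.

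The promoters of the members that differed most from untreated cells are shown first, because 2 of the genes compared below, TAP1 and PSMB9, lie head to head with starts 488 bases apart and yet did not move alike. The 3 class I and the 3 class II members with the largest difference detected on both arrays are given, with PSMB9 added. Each sequence is the 250 bases before the annotated start, read 5′ to 3′ on the gene's own strand, from RefSeq on GRCh38.p14. Capitals mark matches on either strand to 5 motifs: ATTGG, the core bound by NF-Y; TGACG, the core bound by CREB and ATF factors; AGNNACNGA, written here for the X box that RFX binds; GAAANNGAA, an element of interferon regulatory factors; and GGNNTTNCC, a form of NF-kB site. TAP1 lies on the minus strand at chr6:32853705-32853954, HLA-B on the minus strand at chr6:31357180-31357429 and HLA-F on the plus strand at chr6:29723184-29723433. IFI30 lies on the plus strand at chr19:18173563-18173812, HLA-DOA on the minus strand at chr6:33009592-33009841, HLA-DPB1 on the plus strand at chr6:33075740-33075989 and PSMB9 on the plus strand at chr6:32853942-32854191.
TAP1: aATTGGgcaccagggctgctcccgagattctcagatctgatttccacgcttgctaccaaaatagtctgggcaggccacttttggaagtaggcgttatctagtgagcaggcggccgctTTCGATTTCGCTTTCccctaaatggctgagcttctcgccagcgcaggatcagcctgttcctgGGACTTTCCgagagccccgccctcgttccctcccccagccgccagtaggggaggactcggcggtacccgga
PSMB9: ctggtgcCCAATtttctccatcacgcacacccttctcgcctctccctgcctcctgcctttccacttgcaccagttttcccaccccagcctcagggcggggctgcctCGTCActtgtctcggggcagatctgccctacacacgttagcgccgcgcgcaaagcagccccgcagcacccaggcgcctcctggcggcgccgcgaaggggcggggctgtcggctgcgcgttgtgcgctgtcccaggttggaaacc
HLA-B: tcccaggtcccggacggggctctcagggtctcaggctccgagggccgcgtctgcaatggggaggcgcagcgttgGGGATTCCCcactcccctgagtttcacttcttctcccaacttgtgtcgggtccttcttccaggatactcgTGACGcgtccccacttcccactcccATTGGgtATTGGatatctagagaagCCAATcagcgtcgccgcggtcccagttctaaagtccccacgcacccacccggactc
HLA-F: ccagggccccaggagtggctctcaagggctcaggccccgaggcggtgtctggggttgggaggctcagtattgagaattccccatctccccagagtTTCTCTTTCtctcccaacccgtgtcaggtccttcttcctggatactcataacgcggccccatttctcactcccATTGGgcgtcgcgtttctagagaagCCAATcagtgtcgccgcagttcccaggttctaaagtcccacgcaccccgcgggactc
IFI30: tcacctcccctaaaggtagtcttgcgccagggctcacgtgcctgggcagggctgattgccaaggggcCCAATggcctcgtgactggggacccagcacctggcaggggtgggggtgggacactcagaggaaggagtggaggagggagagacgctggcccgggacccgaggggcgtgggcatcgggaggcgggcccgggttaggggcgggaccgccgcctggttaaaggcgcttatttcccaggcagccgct
HLA-DOA: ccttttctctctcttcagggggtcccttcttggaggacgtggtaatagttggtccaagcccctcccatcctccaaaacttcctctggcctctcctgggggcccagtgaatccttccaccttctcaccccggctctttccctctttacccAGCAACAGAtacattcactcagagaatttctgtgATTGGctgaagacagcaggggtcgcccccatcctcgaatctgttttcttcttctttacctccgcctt
HLA-DPB1: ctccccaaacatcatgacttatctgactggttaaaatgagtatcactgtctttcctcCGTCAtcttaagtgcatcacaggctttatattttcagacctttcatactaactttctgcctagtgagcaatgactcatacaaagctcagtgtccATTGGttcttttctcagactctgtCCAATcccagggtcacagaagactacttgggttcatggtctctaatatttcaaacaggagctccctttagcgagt

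In the TAP1 stretch the capitals hold ATTGG at the far end, 2 overlapping IRF matches and an NF-kB match nearest the start. The PSMB9 stretch holds ATTGG and TGACG, and its ATTGG is the same site as that of TAP1, since the windows overlap there. HLA-B has 5 matches, 3 of them ATTGG, and HLA-DOA has an X box match with ATTGG starting 34 bases further on. Of 29 members with a RefSeq promoter entry, 11 of 12 class II promoters and 6 of 14 class I promoters held ATTGG, against 32.0% of all 35116 promoter windows. The X box letters were in 7 of 12 class II promoters, 1 of 14 class I promoters, that of ERAP1, and 12.3% of all windows. In 6 of those 7 class II promoters (HLA-DMA, HLA-DOA, HLA-DQA1, HLA-DQB1, HLA-DRB1 and HLA-DRB5) ATTGG followed on the same strand, its first letter 33 or 34 bases after that of the X box. The IRF element was in 6 of 14 class I promoters (B2M, HLA-F, PSMB10, TAP1, TAP2 and TAPBP), 4 of 12 class II promoters (CD74, HLA-DMB, HLA-DRB1 and HLA-DRB5) and 6.88% of all windows. The NF-kB form was in 5 class I promoters (B2M, HLA-B, PSMB8, TAP1 and TAPBP), 3 class II promoters (HLA-DMA, HLA-DOB and HLA-DQA1) and 14.98% of all windows. TGACG was in 6 class I and 4 class II promoters and in 21.2% of all windows. Where a gene has several starts, the window farthest upstream was read. The letters were chosen with these promoters in view, so the counts describe the windows and test nothing, and a match is not a binding site.

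**Figure D1:**
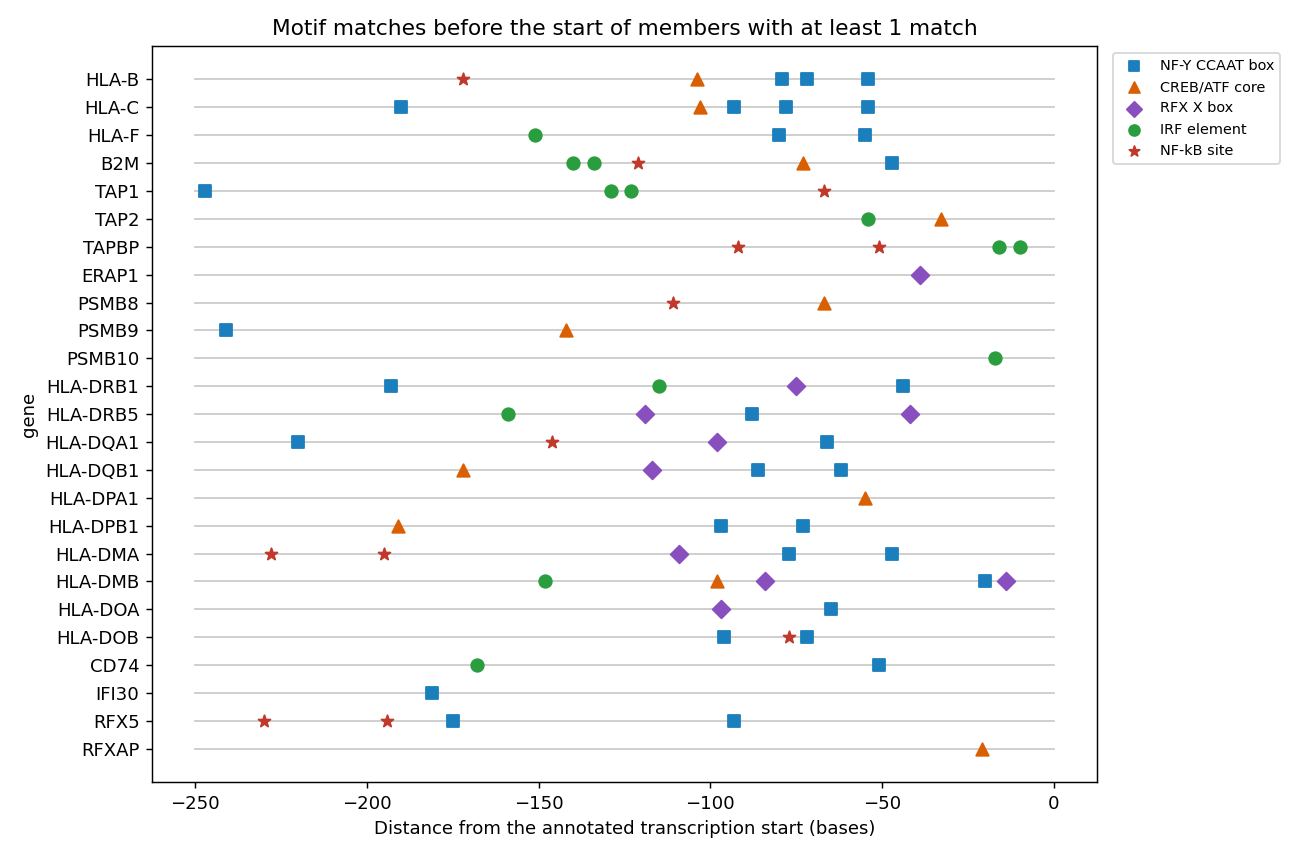
Matches to 5 motifs in the 250 bases before the annotated start of each member that has at least 1 match; the horizontal axis is the distance from the start in bases, each row is a gene, and each symbol is the middle of a match on either strand. X box matches stand in 7 class II rows and in the ERAP1 row, with ATTGG 33 or 34 bases further on in 6 of those class II rows.

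Untreated MelJuSo cells already transcribed both pathways. The probe of HLA-DRA, the alpha chain that all HLA-DR molecules share, read 11515 in untreated cells, and that of CD74 read 6377. Of 9 melanocyte lineage genes with a probe, 6 were detected in untreated cells (SOX10, MITF, PMEL, TYRP1, GPR143 and RAB27A), while MLANA, TYR and S100B were not detected on any array. Of 15 genes of leukocytes and professional antigen-presenting cells, CD68 and CD83 were detected in untreated cells. The pan-leukocyte gene PTPRC, the B cell genes MS4A1 and CD79A, the T cell genes CD3D and CD3E, and the dendritic and myeloid genes ITGAX, CD1C, LYZ, CD80 and CD86 were not detected on any of the 4 arrays.

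The arrays differed in how much they detected. Of the 48803 probes, untreated cells gave 13521 detected, the aclarubicin array 9864, the doxorubicin array 14773 and the combination array 9128, where detected means a deposited detection p-value under 0.01. Among genes detected on both arrays of a pair, the median ratio of the deposited signal to untreated was 0.741, 0.986 and 0.643 on the aclarubicin, doxorubicin and combination arrays. Levels below are log2 values after background correction and quantile normalization, which gives every array the same distribution, and a signal is the deposited intensity before either step. The normalization moves the middle of the range up and the top down on the arrays that lost signal. After aclarubicin a probe of MICA, a stress ligand picked after its values were seen, read 320 against 315 and still differed by 1.06 in level, whereas CD74 read 12141 against 6377 and differed by only 0.55. Signals are therefore given beside levels. The technical error comes from the pair of probes that 1066 genes have. The SD of the difference within a pair was divided by the square root of the number of probes in it. The result, an error for a single probe, is called the probe disagreement below. It was 0.46 log2 for aclarubicin against untreated, 0.32 for doxorubicin and 0.51 for the combination.

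**Figure D2:**
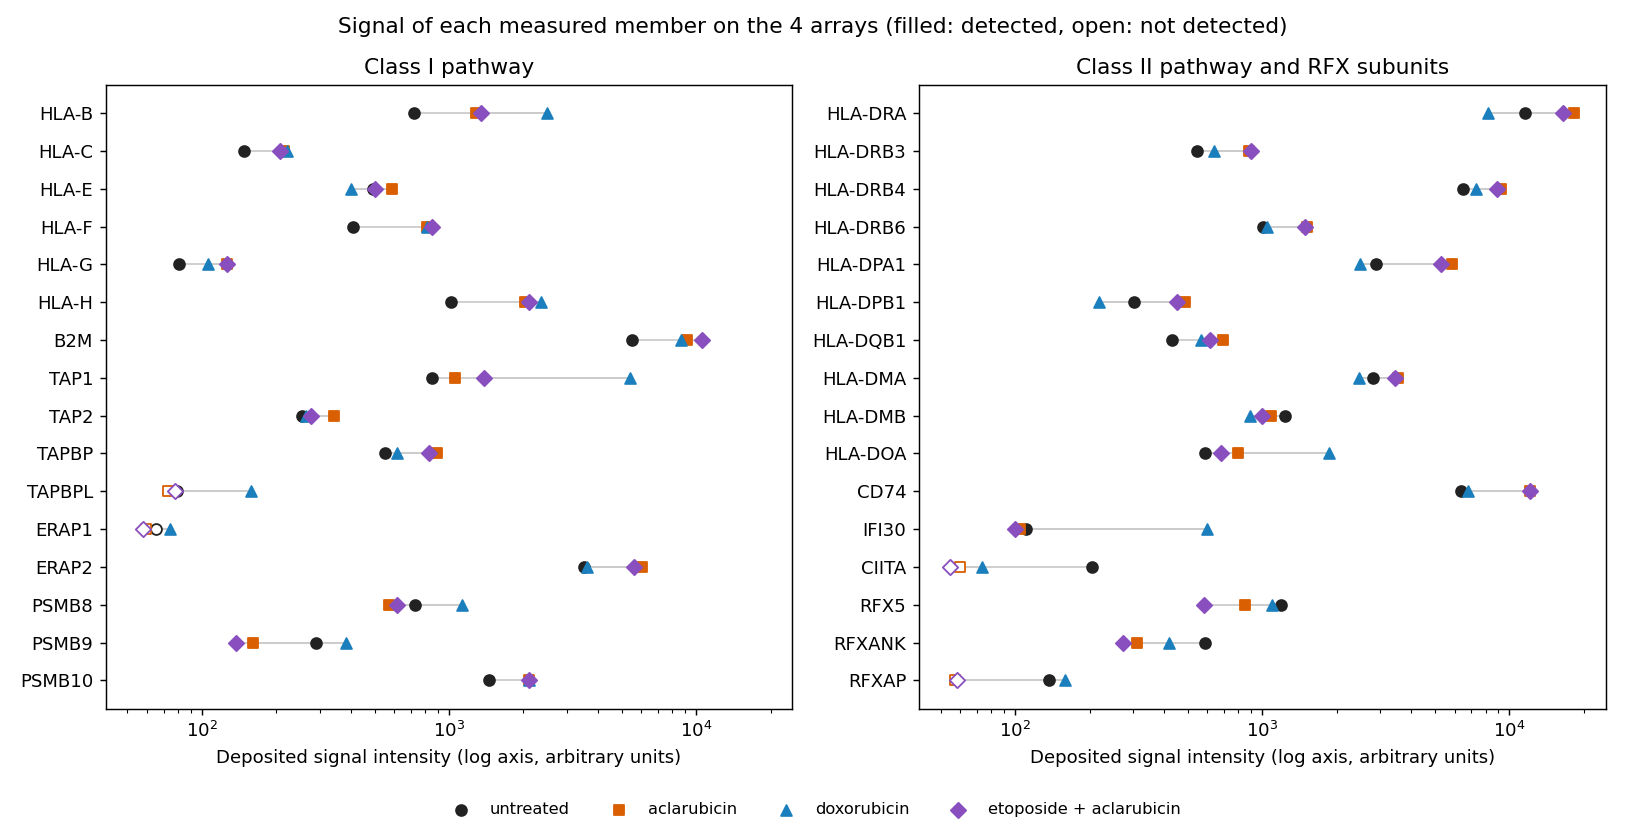
Deposited signal intensity of each measured member on the 4 arrays (log axis, arbitrary units), class I pathway on the left, class II pathway and RFX subunits on the right; each symbol is 1 array, open where the probe was not detected. The doxorubicin symbol stands far to the right for TAP1 (5414), HLA-DOA (1861) and IFI30 (597), and left of untreated for HLA-DRA (8175).

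Aclarubicin was compared with untreated cells first. Class I heavy chains, the TAP and tapasin genes and most class II chains were higher after it, while the class II coactivator CIITA was no longer detected. Of 14 class I members with a difference, 8 lay 2-fold or more above untreated and 0 below, where 19.5% of 7758 genes lay above and 20.0% below. Of 13 class II members, 5 lay above and 0 below. The median log2 difference was 1.31 for class I and 0.86 for class II, against 0.04 for all genes. These medians depend on the scaling: without scaling between arrays they were 0.70 and 0.61 against -0.65 for all genes, with 2 class I members, HLA-F and HLA-H, still 2-fold higher and none of the 5 class II members. HLA-DPA1, short of 2-fold in level, passed it without scaling (1.03). Of the 13 members of both classes past 2-fold, 11 no longer were. The share of all genes past 2-fold was counted only for the reported quantile-normalized levels. With arrays scaled to equal medians the class medians were 1.57 and 1.48 against 0.09. The deposited signal itself was higher than in untreated cells for 12 of 14 class I and 10 of 12 class II members detected on both arrays, as it was for 34.2% of 6568 genes.

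Among the heavy chains, HLA-F, a class I chain of low polymorphism, was the highest after aclarubicin. Its probe read 410 in untreated cells against 812, 816 and 857 on the aclarubicin, doxorubicin and combination arrays. The 3 treated arrays thus lay close together, well above untreated, and the level differed from untreated by 1.88 after aclarubicin. HLA-G, a nonclassical chain, read 80.6 untreated, then 126, 105 and 126 on the treated arrays in that order, and HLA-C, a classical chain, read 148 untreated, then 216, 221 and 206. HLA-H, a pseudogene, read 1018, then 2031, 2352 and 2105. On each of these probes the untreated array was the lowest. HLA-G and HLA-C were 3.30-fold and 3.23-fold higher, HLA-B, a classical heavy chain, 2.85-fold, HLA-H 2.77-fold and HLA-E, a ligand of the NKG2 receptors of natural killer cells, 2.23-fold. HLA-G was near the lowest detected level in untreated cells, at 5.39 against 5.25, and differed by 0.94 without scaling. Beta-2-microglobulin, the invariant light chain, read 5492 in untreated cells against 9133, 8638 and 10599 on the treated arrays. Its level after aclarubicin differed by 0.39, or by 1.61 with arrays scaled to equal medians. Heavy chain genes are close copies, so their probes may share transcripts, and the count of chains that moved is uncertain.

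The transporter and loading genes were higher too. TAP2 read 255 in untreated cells against 344, 264 and 277 on the aclarubicin, doxorubicin and combination arrays, and its level was 2.84-fold higher after aclarubicin. TAPBP, which encodes tapasin, the bridge between TAP and empty class I molecules, read 550, 894, 619 and 832 on the same arrays and was 2.83-fold higher after aclarubicin. On these probes the aclarubicin array read highest and untreated lowest for both genes. The dimmer TAP2 probe, also detected on all arrays, read 145 in untreated cells, then 140, 123 and 123 on the treated arrays. It was thus highest in untreated cells. TAP1 was 1.97-fold higher, and its unscaled log2 difference was 0.33.

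The proteasome genes of the pathway were less uniform in signal. PSMB8, PSMB9 and PSMB10 encode the catalytic subunits of the immunoproteasome. PSMB9 read 288 in untreated cells against 161, 383 and 138 on the aclarubicin, doxorubicin and combination arrays. Its signal after aclarubicin or the combination was thus well below untreated, yet the normalized difference was 0.15 after aclarubicin and turned to -0.99 without scaling. PSMB8 read 727, then 573, 1132 and 615 on these arrays, and differed by 0.47 after aclarubicin, or by -0.36 without scaling. PSMB10 read 1456, then 2096, 2103 and 2115, and of the 3 subunits it alone kept its direction without scaling, with 0.86 and 0.54. ERAP2, an aminopeptidase that trims peptides in the endoplasmic reticulum, read 3509 in untreated cells against 6018, 3628 and 5617 on the treated arrays, and was 1.57-fold higher in level after aclarubicin. ERAP1, its partner, was detected only after doxorubicin, at a signal of 74.5.

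In the class II pathway HLA-DPB1, a beta chain, had the largest difference in quantile-normalized level after aclarubicin among measured members. It read 304 in untreated cells against 487, 219 and 453 on the aclarubicin, doxorubicin and combination arrays. The arrays that had aclarubicin lay above untreated and the doxorubicin array below it, and the level was 3.26-fold higher after aclarubicin. HLA-DPA1, the alpha chain that pairs with it, read 2890, then 5855, 2496 and 5284, in the same order of arrays. HLA-DQB1 read 433, then 696, 563 and 614, so that here all treated arrays lay above untreated. HLA-DQB1 was 3.04-fold, the HLA-DRB3 probe 2.82-fold, the probe of the pseudogene HLA-DRB6 2.21-fold and HLA-DPA1 1.90-fold higher. This order depends on the scaling. With arrays scaled to equal medians the log2 differences of HLA-DPA1 (1.90) and CD74 (1.80) were above that of HLA-DPB1 (1.61). The signal ratio to untreated was 1.60 for HLA-DPB1, 2.03 for HLA-DPA1 and 1.90 for CD74. The HLA-DRB3 probe read 546, then 883, 636 and 900, and the brighter HLA-DRB6 probe 1002, then 1515, 1041 and 1490. The brightest HLA-DRB4 probe read 6491, then 9204, 7353 and 8863, and each of these probes was lowest in untreated cells. The dimmer HLA-DRB6 probe read 930, then 1430, 886 and 1361, lowest after doxorubicin. HLA-DRB4 differed by 0.14 after aclarubicin. The HLA-DRB genes are near-identical, so which copy these probes read is not settled, and the HLA-DRB1 and HLA-DRB5 probes were not detected.

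The brightest class II probes showed how far the scaling matters. HLA-DRA read 11515 in untreated cells against 18293, 8175 and 16397 on the aclarubicin, doxorubicin and combination arrays. The order of its signals was that of HLA-DPB1, yet its level after aclarubicin differed by 0.19, or by 0.67 without scaling and 1.54 with arrays scaled to equal medians. The dimmer HLA-DRA probe, also detected on all arrays, read 9423, then 12360, 5334 and 12379. Its level differed by -0.04 after aclarubicin and by -0.02 after the combination. CD74, the invariant chain, whose 3 probes were detected on all arrays, read 6377, then 12141, 6770 and 12092 on the brightest and differed by 0.55, 0.95 and 2.12 in level from the brightest probe to the dimmest. HLA-DMA and HLA-DMB encode the chains of HLA-DM, the peptide exchange factor. HLA-DMA read 2800, then 3528, 2463 and 3445, and HLA-DMB 1232, then 1082, 892 and 1001, the latter highest in untreated cells. Their levels differed by 0.35 and 0.32 after aclarubicin, that of HLA-DMB by -0.19 without scaling. HLA-DOA, a chain of HLA-DO, which inhibits HLA-DM, read 587, then 794, 1861 and 683, and was 2.36-fold higher after aclarubicin.

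The measured regulators read lower than untreated on the arrays with aclarubicin, as most genes did. Only 34.2% of 6568 genes read higher after aclarubicin and 27.9% of 6110 after the combination. After aclarubicin the signal ratio to untreated was 0.293 for CIITA, 0.531 for RFXANK and 0.715 for RFX5, against a median of 0.741 over all genes. CIITA read 204 in untreated cells against 59.6, 73.2 and 54.6 on the aclarubicin, doxorubicin and combination arrays. Untreated cells thus lay far above every treated array, and after aclarubicin or the combination the probe was not detected. Against the lowest level detected on those arrays, or the probe's own level where that was higher, CIITA was at least 1.56-fold lower after aclarubicin and at least 1.32-fold lower after the combination. Without scaling, those bounds were -1.74 and -1.78 on the log2 scale. RFXANK, a subunit of RFX, read 587 in untreated cells against 312, 421 and 272 on the aclarubicin, doxorubicin and combination arrays, and RFX5, the DNA-binding subunit, read 1195, 854, 1090 and 579. Both read lowest after the combination. Their levels after aclarubicin differed by -0.01 and 0.11, or by -0.99 and -0.50 without scaling. RFXAP was detected in untreated cells, at 138, and after doxorubicin, at 159, and on neither array with aclarubicin. Higher class II chains and lower CIITA signal thus stood on the same arrays, and how they relate was not tested.

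**Figure D3:**
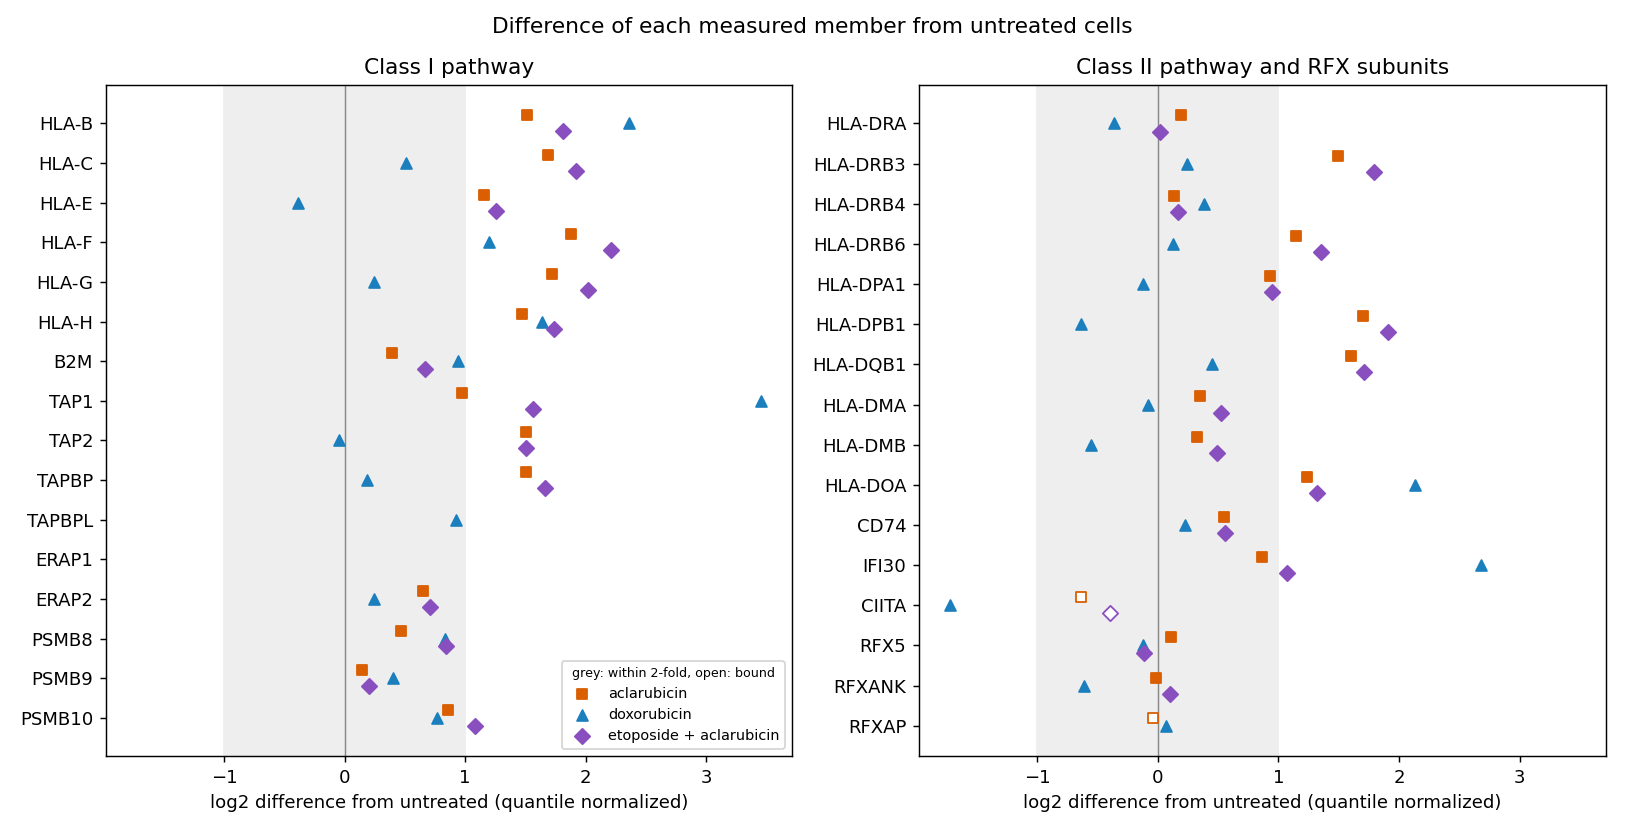
Log2 difference of each measured member from untreated cells after quantile normalization, by treatment; each symbol is 1 array minus the untreated array, the grey band is within 2-fold, and an open symbol is a bound where the treated array did not detect the gene. The aclarubicin and combination symbols lie together for most genes, and the doxorubicin symbol is apart, at 3.45 for TAP1 and 2.68 for IFI30. For CIITA the doxorubicin symbol is at -1.72, and the aclarubicin and combination symbols are bounds, at -0.64 and -0.40. Those bounds are set by higher lowest detected levels (6.19 and 6.43 against 5.05 after doxorubicin). The CIITA signals were close, at 59.6, 73.2 and 54.6 on the aclarubicin, doxorubicin and combination arrays.

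Doxorubicin was compared with untreated cells next. It gave a different profile: a few members were much higher, TAP1 above all, while the class II chains stayed within 2-fold of untreated. Of 15 class I members with a difference, 4 lay 2-fold or more above untreated and 0 below, where 12.0% of 9634 genes lay above and 10.4% below. Of 13 class II members, 2 lay above and 1 below. The median log2 difference was 0.77 for class I and 0.12 for class II, against -0.02 for all genes. Over the settings run the class I median lay between 0.51 and 0.77. The signal was higher than in untreated cells for 14 of 15 class I and 7 of 13 class II members detected on both arrays, against 48.5% of 8511 genes.

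TAP1 encodes a subunit of the peptide transporter. Its probe read 850 in untreated cells against 1058, 5414 and 1389 on the aclarubicin, doxorubicin and combination arrays. The doxorubicin array was far above the other arrays, and the level was 10.96-fold higher than in untreated cells, a log2 difference of 3.45 where the probe disagreement was 0.32. Without scaling the difference was 2.72. TAP2, the other transporter subunit, differed by -0.05, and PSMB9, the head-to-head neighbour of TAP1, by 0.40.

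HLA-B was 5.12-fold higher after doxorubicin. It read 722 in untreated cells against 1285, 2495 and 1352 on the aclarubicin, doxorubicin and combination arrays, so the doxorubicin array stood above the rest and untreated below. HLA-H was 3.12-fold and HLA-F 2.30-fold higher, although the dimmer probe of HLA-F differed by -0.48. HLA-C differed by 0.51, HLA-G by 0.25 and HLA-E by -0.38. Thus HLA-E, which read 492 in untreated cells against 585, 401 and 501 on the aclarubicin, doxorubicin and combination arrays, was the only measured heavy chain with a signal below untreated after doxorubicin on its brightest probe. Beta-2-microglobulin differed by 0.94, PSMB8 by 0.83 and PSMB10 by 0.77, inside 2-fold. TAPBPL, a relative of tapasin that edits peptides, read 79.4 in untreated cells against 73.2, 159 and 78.1 on the aclarubicin, doxorubicin and combination arrays. It differed by 0.92 after doxorubicin, or by 1.40 without scaling. On the arrays with aclarubicin TAPBPL missed the detection threshold, at signals close to untreated. ERAP2 differed by 0.24 on its brighter probe and by 1.63 on the dimmer.

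In the class II pathway IFI30, a lysosomal thiol reductase that opens disulfide bonds of antigens, was the highest after doxorubicin. It read 111 in untreated cells against 105, 597 and 100.2 on the aclarubicin, doxorubicin and combination arrays. The other arrays hardly differed from each other in signal, and the doxorubicin array was 6.41-fold above untreated in level. HLA-DOA was 4.38-fold higher. CIITA was 3.30-fold lower, with a log2 difference of -2.01 without scaling. Its level after doxorubicin, 5.10, was close to the lowest level detected on that array, 5.05. The chains themselves ranged from -0.64 for HLA-DPB1 to 0.45 for HLA-DQB1, with HLA-DRA at -0.36, HLA-DPA1 at -0.12, HLA-DRB6 at 0.12, HLA-DRB3 at 0.25 and HLA-DRB4 at 0.38, so that 4 of 7 lay above 0 on their brightest probe. The dimmer HLA-DRB6 probe differed by -0.03 and the dimmer HLA-DRA probe by -0.77. CD74 differed by 0.23, HLA-DMB by -0.55 and HLA-DMA by -0.08. With the HLA-DRB genes counted as 1 gene, a choice made after seeing the data, the class II median was -0.08.

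Etoposide with aclarubicin was the third comparison with untreated cells, and it shares that untreated array with the others. After quantile normalization HLA-F and HLA-DPB1 again headed the class I and class II members. With arrays scaled to equal medians the log2 differences of CD74 (2.14) and HLA-DPA1 (2.09) were above that of HLA-DPB1 (1.85). Of 14 class I members with a difference, 10 lay 2-fold or more above untreated and 0 below, where 23.5% of 7463 genes lay above and 21.0% below. Of 13 class II members, 6 lay above and 0 below. The median log2 difference was 1.53 for class I and 0.95 for class II, against 0.02 for all genes. Without scaling the medians were 0.66 and 0.51 against -0.89 for all genes, with 2 class I members 2-fold higher, PSMB9 2-fold lower and in class II no member 2-fold higher and CIITA lower. The share of all genes past 2-fold was not counted without scaling. The signal was higher than in untreated cells for 12 of 14 class I and 10 of 12 class II members, against 27.9% of 6110 genes.

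HLA-F was 4.63-fold higher after the combination, followed by HLA-G at 4.06-fold and HLA-C at 3.78-fold. HLA-G, near the lowest detected level in untreated cells, differed by 0.94 without scaling. TAP1 was 2.95-fold, TAPBP 3.17-fold and PSMB10 2.12-fold higher. HLA-DPB1 was 3.75-fold higher, followed by HLA-DRB3 at 3.46-fold and HLA-DQB1 at 3.27-fold. IFI30 was 2.10-fold higher in level, but its signal was slightly under that of untreated cells and its unscaled difference was -0.20.

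Set directly against aclarubicin alone, the combination differed little. None of the 14 class I and 12 class II members with a difference passed 2-fold in either direction, where 0.469% of 6606 genes were 2-fold higher and 0.999% lower. The medians were 0.25 for class I and 0.14 for class II, against 0.02 for all genes, and the probe disagreement was 0.17. TAP1 had the largest difference, 0.58 higher on the log2 scale with etoposide present. Without scaling the medians were 0.0069 and -0.10 against -0.25 for all genes, so that in all settings run both classes lay slightly above the median gene.

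Doxorubicin and aclarubicin are both anthracyclines, given here at 9 and 10 µM, doses close but not equal. After quantile normalization most class II members were lower after doxorubicin than after aclarubicin, and class I was divided, but which members passed 2-fold turned on the scaling. Of 15 class I members with a difference, 1 was at least 2-fold higher after doxorubicin and 5 lower, and of 12 class II members 1 was higher and 5 lower, where 22.4% of 7973 genes were higher and 23.0% lower. The medians were -0.09 for class I and -0.71 for class II, against 0.05 for all genes. With arrays scaled to equal medians they were -0.88 and -1.39 against 0.07, with 1 class I member higher and 5 lower, and 1 class II member higher and 10 lower. Without scaling they were 0.0085 and -0.51 against 0.77, with 4 class I members higher (TAP1 at 2.39, PSMB9 at 1.44, TAPBPL at 1.31 and PSMB8 at 1.02) and 0 lower, and 2 class II members higher and 3 lower. The class I median thus changed sign with the setting, and was also above 0 with cyclic loess (0.0098) and with no detection filter (0.075). The share of all genes past 2-fold was not counted in these other settings, so the member counts there stand without it. The signal after doxorubicin was higher for 8 of 14 class I but only 2 of 12 class II members, IFI30 and HLA-DOA, against 65.3% of 6569 genes.

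TAP1 was 5.56-fold and IFI30 3.52-fold higher after doxorubicin than after aclarubicin, and HLA-DOA 1.85-fold. HLA-DPB1 was 5.06-fold lower, TAP2 2.94-fold, HLA-E 2.91-fold, HLA-G 2.78-fold, TAPBP 2.49-fold, HLA-DRB3 2.38-fold, HLA-C 2.27-fold, HLA-DQB1 2.23-fold, HLA-DPA1 2.07-fold and HLA-DRB6 2.03-fold lower. The probe disagreement for this pair was 0.57. Without scaling 8 of these 12 calls were lost: the differences were -0.58 for HLA-E, -0.34 for HLA-G, -0.42 for TAP2, -0.55 for TAPBP, -0.49 for HLA-DRB3, -0.32 for HLA-DQB1 and -0.55 for HLA-DRB6, and 0.049 for HLA-C. TAP1, IFI30, HLA-DPB1 and HLA-DPA1 remained past 2-fold, at 2.39, 2.93, -1.27 and -1.24. HLA-DRA, within 2-fold in level, was 2-fold lower without scaling (-1.16), and read 8175 after doxorubicin and 18293 after aclarubicin. CIITA was detected after doxorubicin only and is given no fold for this pair, because its level there did not exceed the lowest level detected after aclarubicin.

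**Figure D4:**
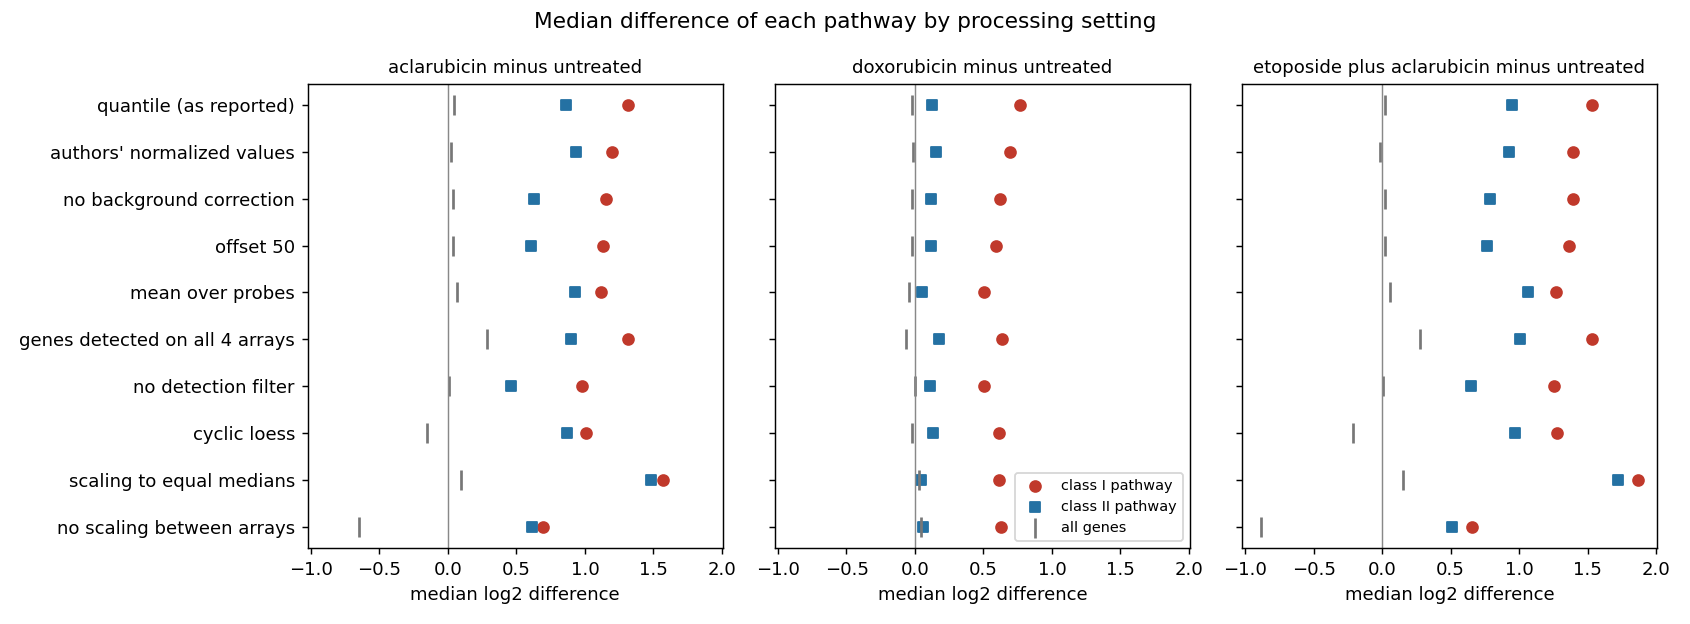
Median log2 difference from untreated of the class I members (circles), the class II members (squares) and all genes with a difference (bars), for the reported setting and 9 alternatives, by treatment. Both pathways lie above all genes under each setting for aclarubicin and the combination; after doxorubicin class I lies apart, and class II lies close to all genes.

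Other genes of the pathway were counted in the same way, against the shares of all genes given above (19.5% higher and 20.0% lower after aclarubicin, 12.0% and 10.4% after doxorubicin, 23.5% and 21.0% after the combination) and all-gene medians of 0.04, -0.02 and 0.02. Among loading chaperones and endoplasmic reticulum folding genes, 3 of 7 lay 2-fold or more above untreated after aclarubicin and 0 below (median 0.98), against 0 higher and 1 lower after doxorubicin (median -0.41) and 4 higher and 0 lower after the combination (median 1.03). CANX, the calnexin that holds new heavy chains, read 906 in untreated cells against 1307, 500 and 984 on the aclarubicin, doxorubicin and combination arrays. Doxorubicin thus stood apart at the low end, with a difference of -1.04, while aclarubicin gave 1.14. CALR, which encodes calreticulin, differed by 0.87 after aclarubicin and -0.67 after doxorubicin. Of the other proteasome subunits and activators, 0 of 18 were higher and 3 lower after aclarubicin (median -0.14), 0 higher and 2 lower after doxorubicin (median -0.19), and 0 higher and 3 lower after the combination (median -0.22). The lower counts lay near the shares of all genes. PSME4, a proteasome activator, differed by -2.63 after aclarubicin, PSMA5, a subunit of the outer ring, by -1.79, and POMP, a proteasome assembly factor, by -1.03.

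Of endosomal proteases and genes of class II turnover, those 2-fold higher were 7 of 10 after aclarubicin (median 1.48), 5 of 12 after doxorubicin (median 0.87) and 8 of 10 after the combination (median 1.61), with 0 lower. The signals of SPPL2A and CD63, not among the 7, were below untreated after aclarubicin, with ratios of 0.908 and 0.805. For CTSH, a lysosomal cathepsin, the aclarubicin array differed by 1.96 and the doxorubicin array by 2.22, and for CTSF, another, by 1.87 and 2.57. CTSS, the cathepsin that cuts the invariant chain in professional antigen-presenting cells, was not detected on any array. Of the promoter partners, 1 of 7 was higher and 1 lower after aclarubicin (median -0.33), 0 and 1 after doxorubicin (median -0.19), and 1 and 1 after the combination (median -0.17).

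Genes that carry interferon-gamma and NF-kB signals to MHC promoters had 0 of 10 higher and 2 lower after aclarubicin (median -0.46), 3 of 14 higher and 0 lower after doxorubicin (median 0.16), and 2 of 11 higher and 2 lower after the combination (median -0.22). IRF1, a factor that binds the IRF element, read 102 in untreated cells against 92.2, 655 and 103 on the aclarubicin, doxorubicin and combination arrays. The doxorubicin array alone was high, with a difference of 2.98, and STAT3 differed there by 1.77. The interferon-gamma receptor gene IFNGR2 differed by -2.17 with aclarubicin and -0.30 with doxorubicin. Among MHC-like molecules and stress ligands, 2 of 5 were higher after aclarubicin (median 0.82), 2 of 6 after doxorubicin (median 0.68) and 3 of 5 after the combination (median 1.11), with 0 lower. MR1, the MHC-like molecule that shows vitamin metabolites to T cells, read 113 in untreated cells against 104, 1318 and 96.5 on the aclarubicin, doxorubicin and combination arrays. It differed by 4.10 after doxorubicin, and the other arrays lay close to each other.

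Markers of other cell types moved on the same arrays in part. Of the 15 leukocyte and antigen-presenting cell genes, 2 were detected in untreated cells and 4, 5 and 4 on the aclarubicin, doxorubicin and combination arrays. Over all 48803 probes, 13521 were detected in untreated cells and 9864, 14773 and 9128 on those arrays. The summed signal of the brightest probe of each of the 15 genes, detected or not, was 1482 in untreated cells against 2417, 2429 and 2420. CD14, a monocyte receptor, read 57.2 in untreated cells and 390 after aclarubicin, and its level differed by -3.74 for doxorubicin against aclarubicin. CD68, a lysosomal protein not confined to leukocytes, read 591 in untreated cells and 1204 after aclarubicin. ITGAM was detected after doxorubicin only, so the genes behind the summed signals differed by drug. CD79B, a B cell receptor gene, was detected on the treated arrays only, while PTPRC, MS4A1, CD79A, CD3D and CD3E were detected on none. Melanocyte genes moved in both directions. Of 6 with a difference, 2 were 2-fold higher and 2 lower after aclarubicin (median 0.45), where 19.5% and 20.0% of all genes were. After doxorubicin 1 of 6 was higher and 1 lower (median -0.23), where 12.0% and 10.4% of all genes were. PMEL was the highest of them after each drug, at 1.15 and 1.00. SOX10 differed by -3.36 with aclarubicin and -0.59 with doxorubicin, and TYRP1 by 0.55 and -2.80. The part of these changes in the MHC results was not tested.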

How the data were processed

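Total RNA of MelJuSo cells was labelled with biotin and hybridised by the standard Illumina protocol, per the labels. The authors deposited non-normalized signal intensity values for 48803 probes on 4 arrays, with a detection p-value for each, per the file headers. They also deposited normalized values, which appear to be log2 at the bright end and with method, scale and centring unstated in the sources at hand. The column medians of these were 2.28 (untreated), 2.18 (aclarubicin), 2.30 (doxorubicin) and 2.12 (combination), and the series' value table was identical to them (largest difference 0). Per the submitters' processing notes, lumi was used, with no version or role stated.

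Background was corrected with normexp, taking the level of negative controls from the deposited detection p-values (limma 3.58.1 in R 4.3.3, offset 16), and signals were quantile-normalized and taken to log2. Probe symbols came from the platform annotation: 27578 probes had 1 symbol, 13 several and 21212 none here. Of a gene's probes detected at p under 0.01 on at least 1 array, the brightest on average stood for it. A difference needed detection on both arrays; with detection on 1, it is a bound against the other array's lowest detected level, or the probe's value there if higher, and no value was given where that bound did not pass 0. The 5 array pairs were compared at a 2-fold threshold, with no test. Alternatives were no background correction, an offset of 50, cyclic loess, scaling to equal medians over probes detected on all 4 arrays, no scaling, the mean over probes, the authors' normalized values, detection on all 4 arrays, no detection filter, and thresholds of 1.5-fold and 3-fold. The number of arrays limits the precision. The calling was tested on simulated data, with changes past 2-fold planted only in genes well above the lowest detected level. That run started from normalized levels, so it did not test the scaling or the calls near that lowest level. Python 3.11.15, numpy 2.4.6, pandas 2.3.3 and scipy 1.17.1 were used.

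The members and gene lists were chosen with earlier results of these data known. Every measured member is named; of other lists, genes among the 2 highest and 2 lowest of a comparison with untreated cells are named by rule, and others were picked after their values were seen, among them MICA, CALR and CTSS.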

Additional observations from a re-analysis of the deposited data

How the results depend on the processing

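Of the class medians, none changed direction in a comparison with untreated cells under the alternatives run, except class II after doxorubicin with the HLA-DRB genes counted as 1 (-0.08 against 0.12), and their counts held within 1.5 times except as follows. Without scaling between arrays, the class I median fell to 0.70 after aclarubicin and 0.66 after the combination, with 2 members 2-fold higher in each and 1 lower after the combination. Without scaling, class II had 1 member higher and 1 lower after aclarubicin, and 0 higher and 1 lower after the combination. Scaling to equal medians gave class II medians of 1.48 after aclarubicin and 1.73 after the combination, with 10 and 11 members higher. Cyclic loess gave class II 3 members higher and 1 lower after aclarubicin and 1 lower after the combination, and no detection filter gave 1 lower in each. At 3-fold, class I had 3 members higher after aclarubicin and 6 after the combination, and class II 2 and 3. At 1.5-fold, class I had 8 members higher after doxorubicin, and class II had 1 lower after aclarubicin and 2 lower after doxorubicin. Among genes detected on all 4 arrays class II had 0 lower after doxorubicin, since CIITA leaves that set. For doxorubicin against aclarubicin, scaling to equal medians gave -0.88 for class I and -1.39 for class II; the class I median of -0.09 turned positive without scaling (0.0085), with cyclic loess (0.0098) and with no detection filter (0.075). Without scaling 8 of the 12 members past 2-fold in that pair were no longer so, as were 11 of 13 after aclarubicin and 14 of 16 after the combination, and 4 class I members were higher and 0 lower in place of 1 and 5. For the combination against aclarubicin no scaling gave 0.0069 and -0.10. Of single members past 2-fold, IFI30 after the combination turned to -0.20 and HLA-C in doxorubicin against aclarubicin to 0.049, both without scaling. Counting the HLA-DRB genes as 1, chosen after seeing the data, gave class II medians of 0.86, -0.08 and 0.95 against untreated cells. The member counts under these alternatives stand without a share of all genes, which was counted only in the reported setting. No paired analysis was possible because each group has 1 array. With 1 array a group, leaving out a replicate was not possible either.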
